A study of Mus musculus with 22 samples.

Results

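Ion channels that open with membrane voltage, or that let potassium leak or rectify, were measured as RNA in pancreatic endocrine cells of mice with and without the transcription factor gene Isl1. The genes are protein-coding, and their symbols begin with Kcn, Scn and a digit, Cacn, or Hcn and a digit in the GRCm38 annotation. Of 138 genes that match, 2 were left out by name and 4 were in neither count table, which leaves 132 of the 30332 genes listed in at least 1 table. There were 116 in both tables, 6 in the E14.5 table alone and 10 in the P9 table alone. They were chosen by name and not by their values.

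Each library held RNA of 100 tdTomato-positive cells sorted by flow cytometry. At the embryonic stage E14.5 there were 6 control and 5 Isl1CKO libraries, and at postnatal day 9 (P9) there were 5 control and 6 Isl1CKO libraries. Isl1CKO animals carried Isl1 f/f, Neurod1Cre and the Ai14 tdTomato reporter. The study describes the E14.5 reporter controls as Isl1 f/+ with Neurod1Cre and Ai14, while the sample labels call all controls WT. Neurod1Cre acts in cells that switch on Neurod1, so it marks the endocrine lineage as a whole and separates none of its cell types. At P9 the pancreas was perfused with collagenase before trypsin, and at E14.5 it was placed directly in trypsin. The study calls each library a biological replicate, but the labels do not say which came from separate animals, so p-values measure the spread between these libraries.

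The count for Isl1 adds up reads over the whole gene, floxed or not, so it is no check of the deletion. Isl1 stood at 14920 ± 1368 scaled counts in E14.5 controls and 10670 ± 1037 in Isl1CKO (SD, n = 6 and 5), and at 3811 ± 514.9 and 8037 ± 2455 at P9 (n = 5 and 6). The P9 libraries labelled Isl1CKO thus held more Isl1 RNA on average than the controls (log2 fold change 1.08 ± 0.21 SE, edgeR adjusted p = 0.00813), against the direction at E14.5 (−0.48 ± 0.08, edgeR adjusted p = 0.00633). Isl1CKO library 5 of P9 had 3730, within the controls (2998 to 4414), and the other P9 Isl1CKO libraries had 7314 to 10410. Every P9 direction below is therefore that of libraries so labelled. In them Gcg (−6.0), Mafa (−5.60), Ucn3 (−4.27) and Pdx1 (−1.46) were lower on the log2 scale, and Fev (4.04) was higher. Of 9 beta-cell markers 7 were called lower and 0 higher, and of 9 alpha-cell markers 3 lower and 2 higher. Of 6 progenitor markers 5 were called higher and 0 lower. By immunostaining, the study describes a loss of glucagon-producing alpha cells in mutant islets at this age. The labels themselves were not tested. Totals ran from 8477482 to 13580985 counts per library, of which the channel genes took 0.153% to 0.197% at E14.5, 0.0743% to 0.100% in P9 controls and 0.151% to 0.221% in P9 Isl1CKO. A share of the raw total also depends on the reads of other genes. Beta-cell markers, insulin genes among them, summed to 5789880 to 8128874 scaled counts in P9 controls and 1118021 to 2814458 in Isl1CKO. With the TMM scaling used below, the members had a median log2 fold change of 0.17 at P9.

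Voltage-gated channels turn depolarization into ion flow. In beta cells, potassium channels set the resting potential and end each action potential, while calcium channels admit the calcium that triggers the release of insulin. Sodium channels shape the action potential of alpha and beta cells, and accessory subunits set how many channels reach the membrane and how fast they open.

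Positions in GRCm38 are given here for Kcnh1 and Cacna1d and for the 4 members with the smallest p at P9. Kcnh1 (ENSMUSG00000058248) is on chromosome 1 from 192190774 to 192510159 on the plus strand, and Cacna1d (ENSMUSG00000015968) is on chromosome 14 from 30039939 to 30491455 on the minus strand. Scn3a lies on chromosome 2 from 65457118 to 65567627, minus strand, and Cacna2d1 on chromosome 5 from 15934691 to 16374511, plus strand. Cacna2d3 lies on chromosome 14 from 28904943 to 29721864, minus strand, and Kcnj12 on chromosome 11 from 61022564 to 61071131, plus strand. The median genomic span of the members was 43977.5 bases, against 21217.5 for the 18590 protein-coding genes listed.

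Promoter windows of 300 bases, from 250 before to 50 after the start of transcription, were taken from RefSeq (GRCm38.p6), and 97 of the 132 members had at least 1. The 133 member windows held a median of 9 CpG dinucleotides, and all 32851 windows held 7. Shown here are the windows of the channel called at E14.5 and of the P9 members with the largest rise and the largest fall among those whose groups did not overlap, with every CG in capitals. They lie at chr1:192190527-192190826 on the plus strand, chr14:29721815-29722114 on the minus strand and chr11:61065554-61065853 on the plus strand.
Kcnh1: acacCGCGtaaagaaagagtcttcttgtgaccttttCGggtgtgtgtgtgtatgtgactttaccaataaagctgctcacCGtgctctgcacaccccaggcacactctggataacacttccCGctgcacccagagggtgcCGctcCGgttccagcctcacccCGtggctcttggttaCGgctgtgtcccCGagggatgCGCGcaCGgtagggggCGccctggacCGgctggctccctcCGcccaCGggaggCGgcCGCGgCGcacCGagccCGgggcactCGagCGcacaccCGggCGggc
Cacna2d3: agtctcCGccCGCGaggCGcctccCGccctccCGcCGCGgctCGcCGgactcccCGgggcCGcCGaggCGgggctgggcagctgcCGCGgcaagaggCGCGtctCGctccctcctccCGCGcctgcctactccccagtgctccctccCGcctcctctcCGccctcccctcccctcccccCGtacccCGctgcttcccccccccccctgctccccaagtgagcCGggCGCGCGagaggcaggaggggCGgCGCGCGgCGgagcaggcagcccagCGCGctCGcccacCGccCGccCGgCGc
Kcnj12: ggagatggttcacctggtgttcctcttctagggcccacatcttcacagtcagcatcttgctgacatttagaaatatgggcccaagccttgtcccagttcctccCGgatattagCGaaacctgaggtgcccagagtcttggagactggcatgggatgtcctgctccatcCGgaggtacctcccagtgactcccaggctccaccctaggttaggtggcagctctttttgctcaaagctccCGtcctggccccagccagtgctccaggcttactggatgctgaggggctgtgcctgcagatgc

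The Kcnh1 window holds 27 CpG, that of Cacna2d3 holds 41 and that of Kcnj12 holds 4. The Kcnj12 window lies at a RefSeq start inside the gene, which begins at 61022564 in the annotation. Those of Kcnh1 and Cacna2d3 include the annotated gene start. CTAATG, searched on both strands, was in 6 of the 133 member windows (4.51%) and in 7.36% of all windows, and in none of the windows shown. A match of letters is a description and not a binding site.

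In control cells a single leak channel led at both ages. Scaled counts are counts brought to a common library size, and levels of different genes are compared per kb of exon. Kcnk16, a K2P leak potassium channel of the islet, stood at 1906 ± 257 scaled counts per kb in E14.5 controls (SD, n = 6) and 705 ± 80.9 in P9 controls (n = 5). It made up 42.3% of the summed per-kb level of all members at E14.5 and 30.1% at P9. Kcnmb2, a beta subunit that inactivates the large-conductance calcium-activated channel, came next, with 397 ± 51.9 and 312 ± 64.5 per kb. At E14.5 the calcium channel subunit Cacna2d1 (295 ± 31.9), the EAG-family channel Kcnh6 (199 ± 33.3), the leak channel Kcnk1 (181 ± 77.6), Kcnh2 (110 ± 32.8), Kcnk3 (82.7 ± 19.8) and the T-type calcium channel Cacna1h (75.2 ± 17.5) followed. The ranges of mean ± SD of Kcnh6 and Kcnk1, and those of Kcnk3 and Cacna1h, overlapped. At P9 Kcnk1 (196 ± 101), Cacna2d1 (131 ± 23.8), Kcnab3 (58.7 ± 28.8), Kcnip1 (57.5 ± 21.5), the P/Q-type channel Cacna1a (55.0 ± 13.0) and the L-type channel Cacna1d (45.7 ± 9.04) followed. The range of mean ± SD of Kcnk1 overlapped those of Kcnmb2 and Cacna2d1, and from Kcnab3 to Cacna1d the ranges all overlapped. With the longest transcript as the length, the 8 highest kept 6 of their members at E14.5 and lost 1 (Cacna1d) at P9. The 8 held 72.1% of the summed level at E14.5 and 66.7% at P9. The counting used its unstranded default, and 25 members share exonic bases with another gene. Cacna1d shares 589 of its 12621 exonic bases with Chdh on the other strand, and Kcnab3 shares 147 of 2865 with its antisense gene. Only within those shared bases could the reads of the overlapping genes not be told apart.

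**Figure D1:**
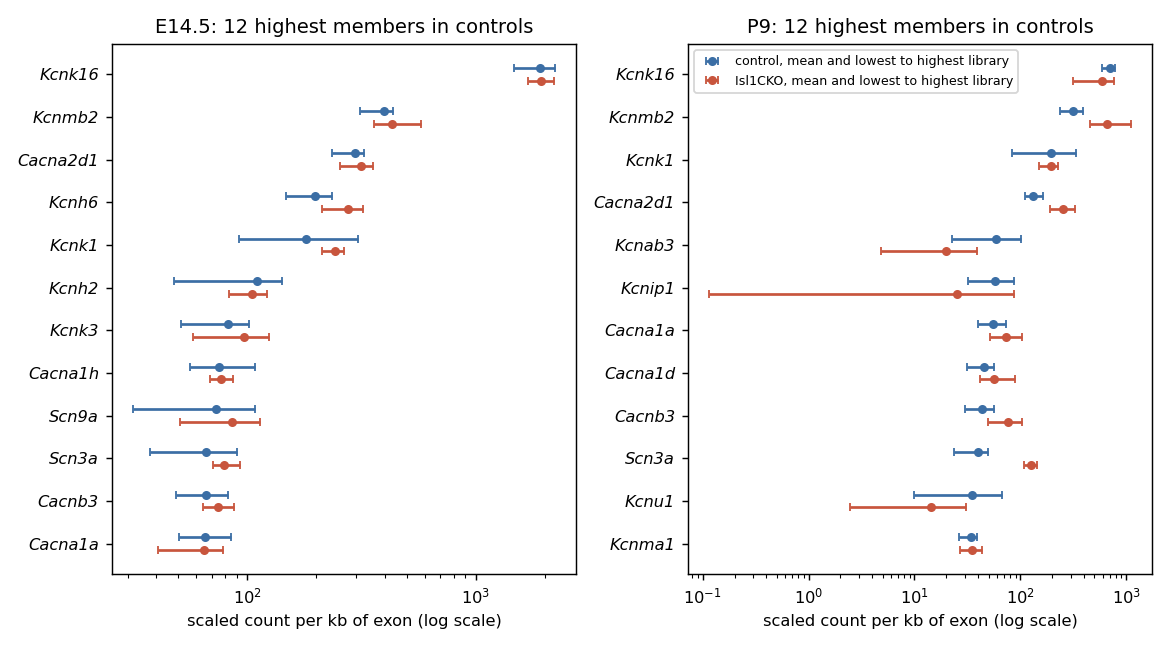
Scaled counts per kb of exon (log scale) for the 12 members highest in controls at E14.5 (left) and P9 (right), as the mean (point) and the lowest to the highest library (bar), with control in blue and Isl1CKO in red. Kcnk16 was highest at both ages, at 1906 in E14.5 controls and 705 in P9 controls.

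Most members were lowly expressed. Among those listed, 31 of 122 reached a mean of 100 scaled counts in E14.5 controls and 45 stayed under 10. At P9 the corresponding numbers were 25 and 56 of 126. Of the members listed, 74 at E14.5 and 62 at P9 passed the filter on low counts and were tested, and 48 and 64 were not. Of the members not tested, Kcnk9 had the highest group mean at both ages, at 27.5 scaled counts at E14.5 and 65.1 at P9, and it is named for that after its values were seen. The E14.5 mean was that of controls, with 116 in library 3 and 1.03 to 25.7 in the others. The P9 mean was that of Isl1CKO, with 356 in library 5 and 4.36 to 10.5 in the others.

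At E14.5 a single channel passed the test. Kcnh1, an EAG-type voltage-gated potassium channel, rose in Isl1CKO, and 73 of the 74 members tested did not pass. Genes called made up 1.43% of the 15960 tested, 0.602% higher and 0.827% lower, and the members' share was 1.35%. The median log2 fold change was 0.01 over the members and −0.00 over all genes, with 37 members above 0 and 37 below. An unadjusted p under 0.05 was reached by 13.5% of the members, 3 higher and 7 lower, and by 11.45% of all genes. This was near the background for the group as a whole.

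In the 6 E14.5 control libraries Kcnh1 had 10.2, 11.4, 4.02, 8.02, 16.1 and 2.96 scaled counts. In the 5 Isl1CKO libraries it had 365, 217, 141, 20.6 and 203. The lowest Isl1CKO library was above the highest control, and the groups did not overlap, as was so for 2.49% of all genes in either direction. The means were 8.77 ± 4.88 and 189 ± 125 (SD), a log2 fold change of 4.41 ± 0.61 (SE, edgeR adjusted p = 0.00164). With limma-voom the call was lost (log2 fold change 4.09, adjusted p = 0.165). The macrophage markers averaged 5.53, 6.27 and 5.50 on the log2 scale in Isl1CKO libraries 3, 4 and 5, against 2.59 to 3.65 in controls and 2.91 and 2.25 in the other Isl1CKO libraries. Their summed scaled counts lay above the controls (454 to 697) in libraries 3 and 4 (975 and 1358) but not in library 5 (671). Without those 3 libraries the Kcnh1 difference was 5.03 (edgeR adjusted p = 0.00223). Endocrine progenitor markers moved with the genotype as well, from a summed 96141 to 158806 in controls to 225050 to 270815 in Isl1CKO, with 4 of 6 called higher. Their part in the Kcnh1 result was not tested. In bulk samples fewer cells of a type and less RNA per cell cannot be told apart.

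Members that missed the threshold at E14.5 were examined for the direction they took. The 4 named here were chosen after their values were seen, because DESeq2, the study's own tool, called them beside Kcnh1. Kcnb2, a delayed rectifier, stood at 613 ± 121 scaled counts in controls and 393 ± 56.8 in Isl1CKO (−0.64 ± 0.16, edgeR adjusted p = 0.0652). Kcnd2, which carries A-type current, stood at 45.1 ± 44.9 and 2.83 ± 3.33 (−3.95 ± 1.06, edgeR adjusted p = 0.0992), with control libraries between 1.00 and 122, so that the groups overlapped. Kcnh6 stood at 706 ± 118 and 984 ± 149 (0.48 ± 0.14, edgeR adjusted p = 0.131). Kcnj13, an inward rectifier, stood at 57.2 ± 17.8 and 19.8 ± 12.4 (−1.53 ± 0.46, edgeR adjusted p = 0.156). Cacna1d, the L-type channel, stood at 662 ± 176 and 837 ± 109 (0.34 ± 0.17, edgeR adjusted p = 0.484), with control libraries from 433 to 887 and Isl1CKO libraries from 659 to 921. Kcnk4, a K2P channel, was the only tested member besides Kcnh1 whose groups did not overlap, and it was not called (−0.26, edgeR adjusted p = 0.726).

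By family, the members at E14.5 lay on both sides of 0. All 4 pacemaker Hcn members tested lay below 0, with the lowest at −0.30, and none was called. Of 9 calcium- or sodium-activated channels 6 lay above 0 and 3 below, and of 8 pore-forming Cacna1 members 4 and 4. Kir inward rectifiers had 4 of 5 below 0, with a median of −0.54.

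At P9, 8 of 62 members tested passed, 6 higher and 2 lower. Genes called made up 4.81% of the 13964 tested, 2.66% higher and 2.14% lower, against 12.9% of the members, and the members called at E14.5 and P9 had none in common. The median log2 fold change was 0.17 over the members and 0.02 over all genes, and 36 members were above 0 and 26 below. An unadjusted p under 0.05 was reached by 24.2% of the members, 11 higher and 4 lower, and by 17.4% of all genes. With total counts in place of the TMM scaling the median of all genes moved to 0.68 and the members called were 15 higher and 1 lower, or 25.8% of those tested against 28.5% of all genes, so the members' larger share was not seen with that scaling. With totals that left out 8 hormone genes the same 8 members were called, or 12.9% of those tested against 5.38% of all genes. A member that was not called is not shown to be at the same level in both groups. Groups did not overlap for 5 members that were higher and 1 that was lower, with 5.38% of all genes in either direction.

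**Figure D2:**
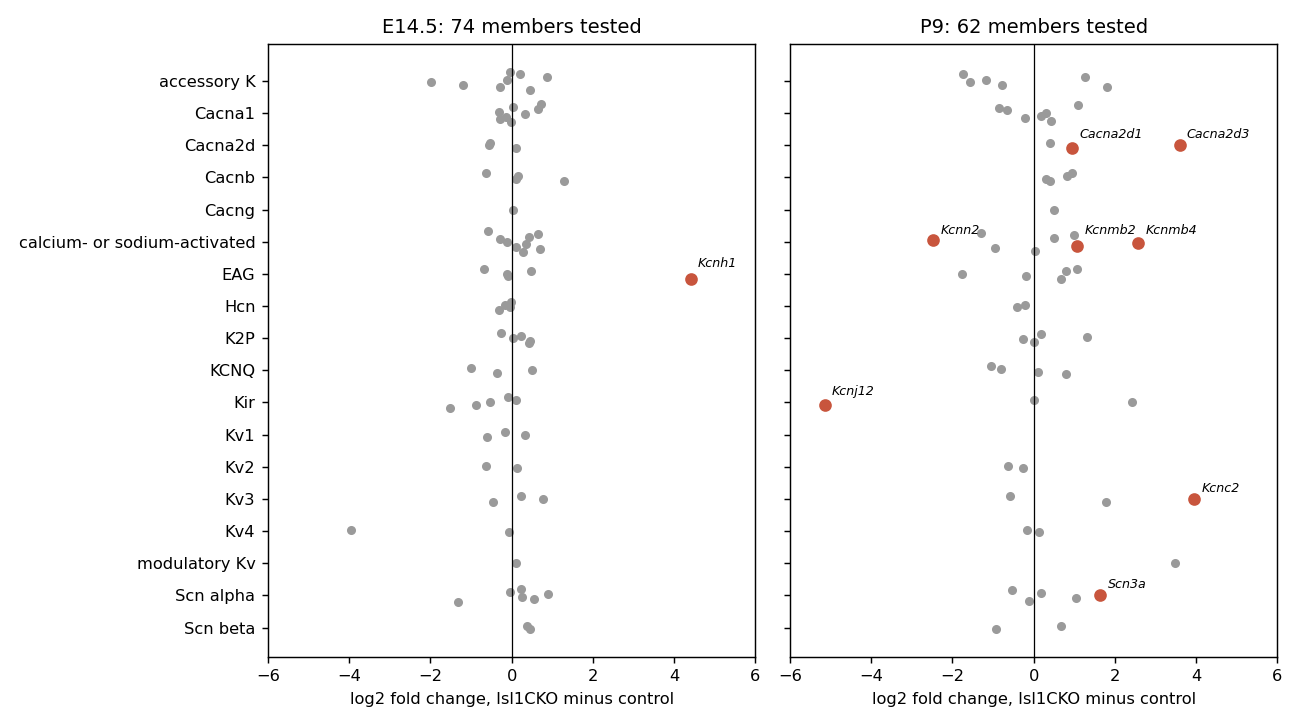
Log2 fold change, Isl1CKO minus control, of every member tested at E14.5 (left, 74) and P9 (right, 62), arranged by family, with called members in red and labelled. Kcnh1 was called at E14.5, and 8 members were called at P9.

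Scn3a, a voltage-gated sodium channel alpha subunit, had the smallest p. Its 5 control libraries had 620, 292, 464, 498 and 617 scaled counts, and its 6 Isl1CKO libraries had 1803, 1496, 1433, 1356, 1610 and 1657. The lowest Isl1CKO library was above the highest control. The means were 498 ± 135 and 1559 ± 163 (1.65 ± 0.19 log2, SE, edgeR adjusted p = 1.36e-04). Of the 10 Scn alpha members 5 were tested, and Scn3a was the only one called. The summed level of the family per kb, Scn3a included, was 79.0 ± 9.25 in controls and 160 ± 17.6 in Isl1CKO. Of the 5 tested, 3 lay above 0 and 2 below, with a median log2 fold change of 0.19.

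Alpha2delta subunits, which carry calcium channels to the membrane, were higher in Isl1CKO in 2 of the 3 tested. Cacna2d1 had 1819, 1517, 2035, 1374 and 1360 scaled counts in controls and 2357, 4084, 2915, 3588, 2441 and 3274 in Isl1CKO. No value of one group fell within the other (0.94 ± 0.17, edgeR adjusted p = 0.00471). Cacna2d3 had 10.48, 7.55, 51.1, 7.99 and 82.4 in controls and 236, 211, 245, 571, 617 and 461 in Isl1CKO. These groups did not overlap either (3.60 ± 0.64, edgeR adjusted p = 0.00403). The summed level of the family per kb was 139 ± 22.9 in controls and 301 ± 54.7 in Isl1CKO. The third, Cacna2d4, was not called (0.40 ± 0.60, edgeR adjusted p = 0.814), and all 4 beta subunits of calcium channels (Cacnb) lay above 0 without passing the test, with a median of 0.61. None of the 7 tested pore-forming Cacna1 members passed, with 4 above 0 and 3 below. Cacna1d stood at 577 ± 114 in controls and 710 ± 207 in Isl1CKO (0.30 ± 0.21, edgeR adjusted p = 0.540).

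Of the 3 tested beta subunits of the large-conductance calcium-activated channel 2 rose, and its pore did not pass the test. Kcnmb2 had 739, 1211, 1153, 838 and 942 scaled counts in controls and 1766, 2050, 1729, 1416, 3487 and 1825 in Isl1CKO (1.07 ± 0.22, edgeR adjusted p = 0.0105). The highest value was library 5, which also stood apart in Kcnb2 and Kcnk16. Kcnmb4, another beta subunit, had 10.48, 15.1, 25.6, 3.99 and 8.68 in controls and 81.1, 48.7, 101, 68.6, 89.2 and 69.7 in Isl1CKO (2.57 ± 0.57, edgeR adjusted p = 0.0164). Neither gene's groups overlapped, and Kcnmb4 shares exonic bases with an antisense gene. Kcnmb1, the remaining beta subunit, stood at 72.6 ± 75.6 in controls and 37.6 ± 15.1 in Isl1CKO and was not called (−0.95 ± 0.67, edgeR adjusted p = 0.534), and it is named to complete the 3. Kcnma1, the pore, stood at 581 ± 83.8 and 592 ± 138 (0.03 ± 0.20, edgeR adjusted p = 0.970).

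Kcnc2, a fast delayed rectifier, had 5.82, 21.4, 12.8, 0 and 1.08 in controls and 308, 92.7, 17.2, 83.4, 127 and 142 in Isl1CKO. Isl1CKO library 3 fell among the controls (3.95 ± 0.92, edgeR adjusted p = 0.0212). The Kcnc2 call was lost without control library 1 (3.85), without Isl1CKO library 1 (3.48) and with limma-voom (4.43, adjusted p = 0.0816). Kcns3, a silent subunit that modifies Kv2 channels, missed the threshold at 3.33 ± 0.887 and 38.2 ± 28.8 (3.47 ± 0.96, edgeR adjusted p = 0.0510) and is named after its values were seen.

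The 2 members that fell were an inward rectifier and a small-conductance calcium-activated channel. Kcnj12 had 12.8, 29.0, 184, 95.9 and 46.6 scaled counts in controls and 1.74, 2.81, 2.87, 2.11, 1.67 and 0.711 in Isl1CKO. Every Isl1CKO library was below every control (−5.14 ± 0.79, edgeR adjusted p = 0.00127), with 1 to 3 reads in each Isl1CKO library and 13 in all against 307 in controls. At so few reads the fitted fold depends on the prior count. Kcnn2 had 39.6, 286, 567, 230 and 87.9 in controls and 26.2, 14.1, 20.1, 104, 70.8 and 25.6 in Isl1CKO. Its groups overlapped (−2.48 ± 0.67, edgeR adjusted p = 0.0466), and the call was lost in 7 of the 11 fits that left out a library, where the log2 fold change ran from −1.89 to −2.50. It was also lost with total counts (−1.78), without the filter (−2.42) and with limma-voom (−2.29). Control library 3, the highest in both genes, also had the highest acinar markers, with 4120 scaled counts against 110 to 1478 in the other controls.

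**Figure D3:**
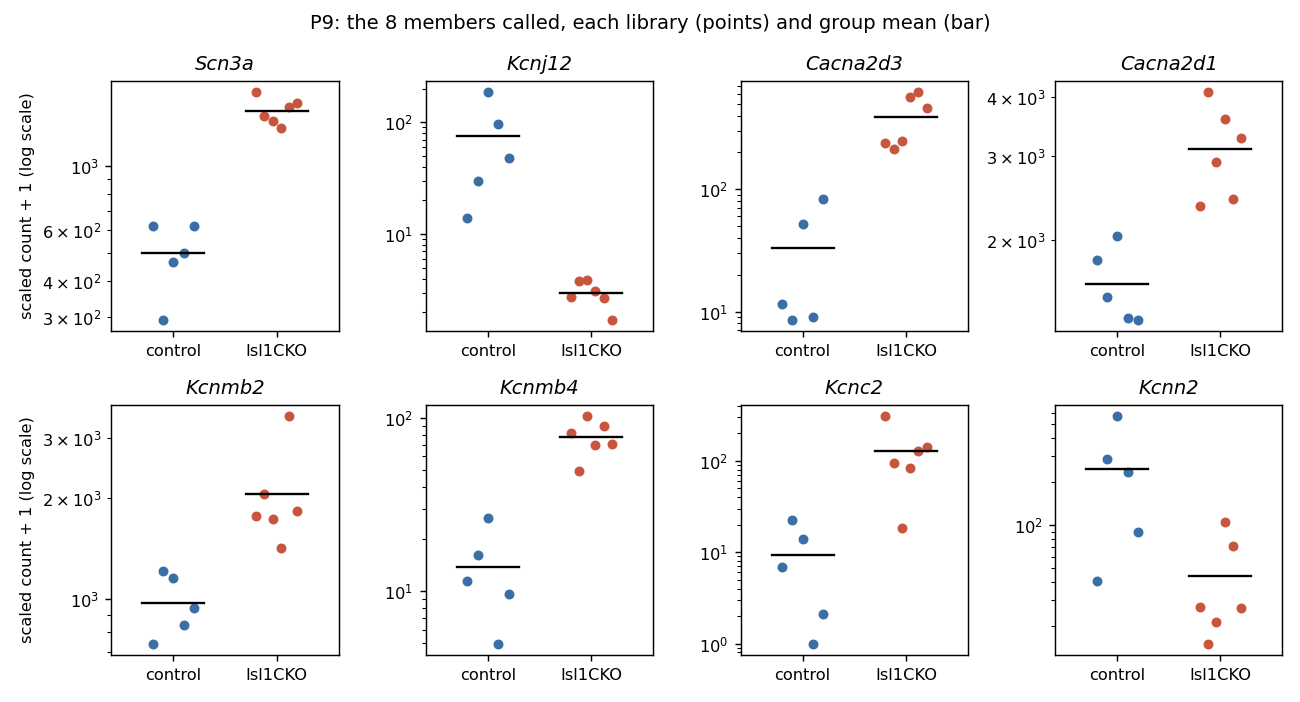
Scaled counts plus 1 (log scale, a separate axis for each gene) of the 8 members called at P9 in each of 5 control (blue) and 6 Isl1CKO (red) libraries, with bars at the group means plus 1. The groups separate fully for 6 genes and overlap for Kcnc2 and Kcnn2.

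Cell type markers moved with genotype at P9. Summed beta-cell markers ran from 5789880 to 8128874 scaled counts in controls and 1118021 to 2814458 in Isl1CKO, with 7 of 9 called lower. Alpha-cell markers ran from 383846 to 1116241 and 83736 to 262704, with 3 of 9 called lower and 2 higher. Progenitor markers ran from 11400 to 16490 and 140194 to 349519, with 5 of 6 called higher. Most of the progenitor sum was Chgb, at a mean of 12060 in controls and 259471 in Isl1CKO. On the mean log2 scale progenitor markers ran from 5.82 to 7.29 in controls and 9.61 to 11.1 in Isl1CKO. Neuron markers, cells rich in these channels, summed to 1188 to 1613 in controls and 451 to 818 in Isl1CKO, with both of the 2 tested called lower. Of delta-cell markers 1 rose and 1 fell, and of the epsilon and PP markers 1 fell. Markers of glia, macrophages, endothelium, mesenchyme, acinar cells and duct had 0 called at either age by edgeR, but many were not tested. In that order, those tested at E14.5 were 4 of 5, 4 of 7, 1 of 5, 1 of 5, 2 of 6 and 5 of 5. At P9 they were 3, 2, 0, 2, 4 and 4, so no endothelial marker could be called. Duct markers summed to 540 to 871 in P9 controls and 577 to 4195 in Isl1CKO. At E14.5 alpha-cell markers had 1 called higher and 4 lower, and beta-cell and delta-cell markers 1 lower each. Neuron, epsilon and PP markers had 0 called there, with 2 of 8 neuron markers tested. The part of these cell type markers in the channel results was not tested. Among 18 tested genes of channel partners, 1 passed: Abcc8, the sulfonylurea receptor that partners an inward rectifier in the ATP-sensitive channel, fell by 1.88 on the log2 scale (edgeR adjusted p = 0.00442). Of 25 tested stimulus-secretion genes 3 rose and 8 fell, among them Trpm5, a cation channel (−4.94), and Glp1r, the GLP-1 receptor (−2.92). At E14.5 none of 21 partner genes passed and 1 of 25 stimulus-secretion genes fell, Ffar1 (−1.27).

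Whether the genotype effect differed between the ages was tested in one fit over all 22 libraries. Of 83 members tested 3 passed (359 of 17265 genes, 2.08%, with 1.23% higher and 0.851% lower). Kcnh1 had the larger log2 effect at E14.5, with a difference of −3.71 ± 0.88 (edgeR adjusted p = 0.0271). That effect is a ratio to E14.5 controls with 52 Kcnh1 reads in all, and a rise in scaled counts was not compared between the ages. On the scale of all 22 libraries the control mean of Kcnh1 was 6.64 ± 3.68 at E14.5 and 213 ± 136 at P9. Its Isl1CKO libraries ran from 15.6 to 274 at E14.5 and from 74.1 to 634 at P9 on that scale. In P9 the within-age values were 146 ± 93.4 in controls and 233 ± 151 in Isl1CKO (0.68 ± 0.59, edgeR adjusted p = 0.629), and the libraries overlapped. The interaction call of Kcnh1 was lost without Isl1CKO library 1 of E14.5 (−3.33), without control library 2 of P9 (−3.46) and with limma-voom (−3.26, adjusted p = 0.215). Scn3a (1.40 ± 0.29, edgeR adjusted p = 0.00942) and Cacna2d1 (0.85 ± 0.20, edgeR adjusted p = 0.0264) had the larger effect at P9, and Cacna2d1 lost its call without Isl1CKO library 1 of E14.5. Without Isl1CKO libraries 3, 4 and 5 of E14.5, Scn3a (1.32, edgeR adjusted p = 0.164) and Cacna2d1 (0.99, edgeR adjusted p = 0.119) lost their calls and Kcnh1 kept its own. With total counts the calls were 13 higher and 1 lower in place of 2 and 1, or 16.9% of the members against 18.5% of all genes. With totals that left out 8 hormone genes they stayed at 2 and 1, or 3.61% against 2.34%.

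**Figure D4:**
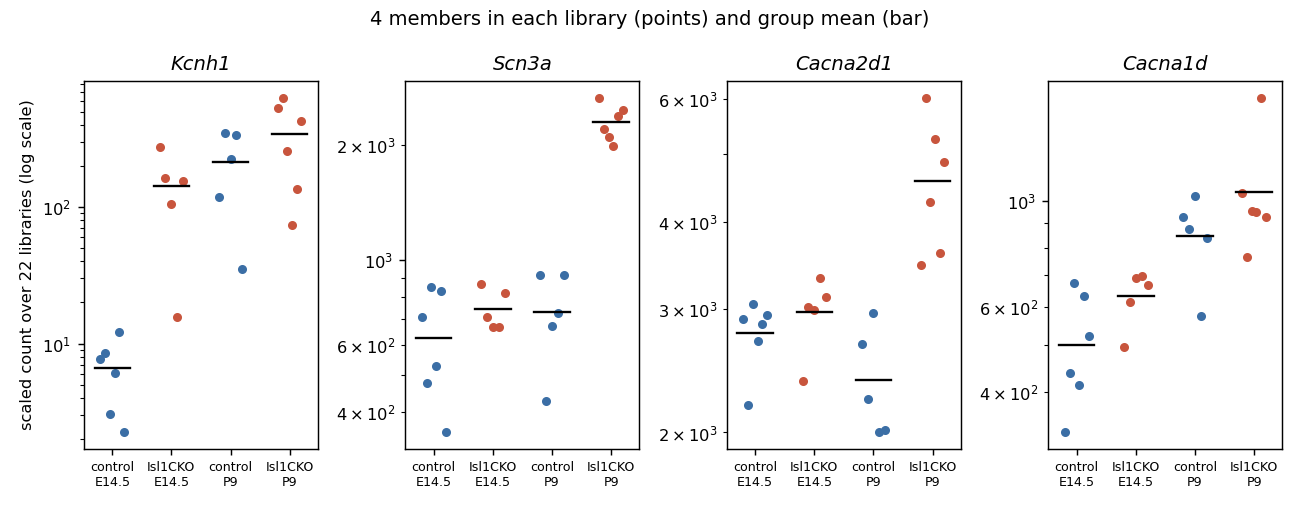
Kcnh1, Scn3a, Cacna2d1 and Cacna1d in each library of the 4 groups, scaled over 22 libraries (log scale, a separate axis for each gene), with bars at the group means. Kcnh1 was low in E14.5 controls, at a mean of 6.64, and at 213 in P9 controls.

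The control groups of the ages differed in 31 of 83 members tested, 20 higher and 11 lower at P9. All genes were called at 31.0%, 15.8% higher and 15.2% lower, and the members' share was 37.3%. Age cannot be told apart from the dissociation, and with total counts the median of all genes moved to −1.21 and the members called were 7 higher and 35 lower. With totals that left out 8 hormone genes they were 17 higher and 11 lower, or 33.7% of the members against 31.6% of all genes. The values here are on the scale of 22 libraries. Kcnh1 was 4.98 ± 0.70 higher on the log2 scale (edgeR adjusted p = 9.32e-06). Cacna1h, the T-type calcium channel, was lower, with 416 to 799 in E14.5 controls and 9.26 to 114 at P9 (−3.78 ± 0.53, edgeR adjusted p = 9.01e-06). Kcna5, a Kv1 channel, was lower at P9 (−5.85 ± 0.91), as was Kcnh6 (−1.63 ± 0.24) and Scn11a, a sodium channel of sensory neurons (−4.09 ± 1.05).

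Calcium-activated channels were among those higher at P9. Kcnma1 was 1.12 ± 0.20 higher and Cacna1d 0.76 ± 0.20 (edgeR adjusted p = 0.00558), and both turned to the other sign with total counts (−0.07 and −0.42). Kcnn2 (3.24 ± 0.60) and Kcnj12 (4.51 ± 0.85), the 2 members that were lower in P9 Isl1CKO, were higher in P9 controls than in E14.5 controls, and these comparisons share the P9 control libraries. Kcnab3, an accessory subunit of Kv channels (2.63 ± 0.47), and Kcnq5 (3.48 ± 0.65) were higher too. Of the KCNQ family 3 of 5 tested were called higher, and of the calcium- or sodium-activated channels 5 of 9. With total counts Kcnq5 was the only KCNQ member called, and of those 5 channels Kcnn2 was called higher, Kcnmb2 was called lower and the other 3 were not called.

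The leading leak channels went opposite ways with TMM scaling but not with total counts. The members of this paragraph were chosen after their values were seen, for their high level in controls. Kcnk16 averaged 3432 in E14.5 controls and 2461 at P9 (−0.48 ± 0.16, edgeR adjusted p = 0.0241), while Kcnk1 averaged 307 and 643 (1.07 ± 0.29, edgeR adjusted p = 0.00656) and had −0.12 with total counts (edgeR adjusted p = 0.734). The Kcnk16 call was lost without control library 3 of E14.5 or without control library 3 or 4 of P9, where the log2 difference was −0.43, −0.46 and −0.42. Kcnmb2 was 0.60 ± 0.19 higher and the P/Q-type Cacna1a 0.70 ± 0.19 higher at P9, but with total counts both were called lower (−0.57 and −0.47). Kcnmb2 also lost its call without control library 2 of P9 (0.51) and with totals that left out 8 hormone genes (0.50). Kcnip1, which binds Kv4 channels, averaged 122 and 523 (2.10 ± 0.68, edgeR adjusted p = 0.0207), and the call was lost with total counts (0.90) and without control library 4 of P9 (1.91). Kcnh2, of the EAG family, fell by 0.92 on the log2 scale, and lost its call without control library 3 of P9 (−0.79).

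**Figure D5:**
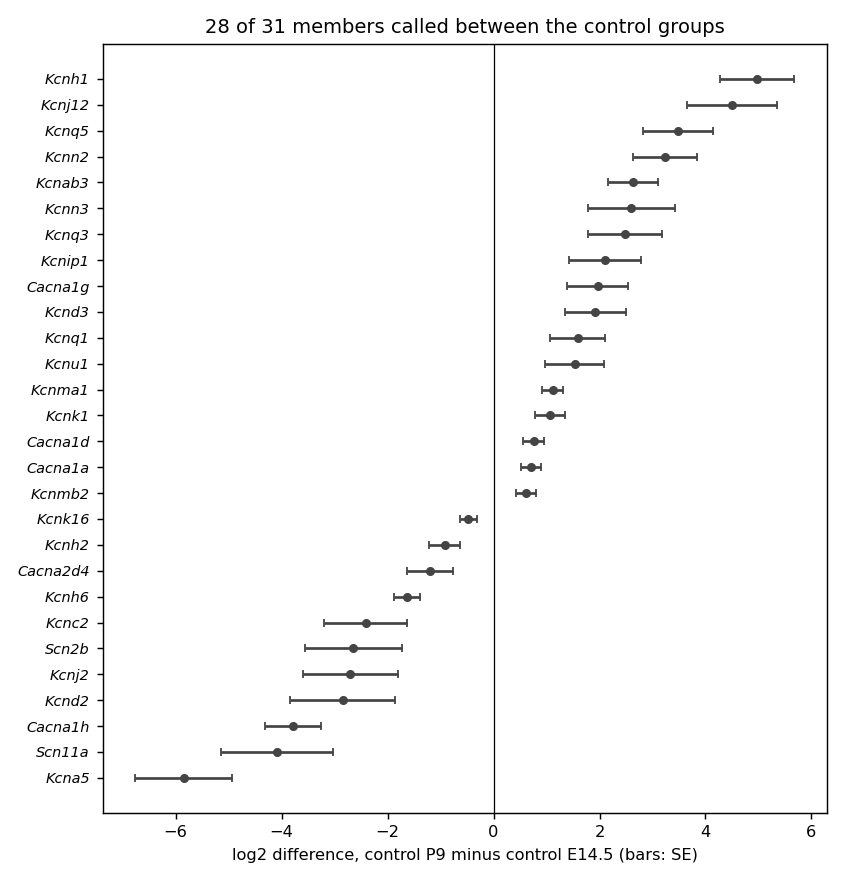
Log2 difference, control P9 minus control E14.5, with its standard error, of 28 of the 31 members called, on the scale of 22 libraries. It runs from −5.85 (Kcna5) to 4.98 (Kcnh1).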

How the data were processed

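RNA-seq counts of 22 libraries of 100 sorted cells were used. Per the methods and labels, the authors trimmed reads, removed ribosomal reads (Bowtie 1.2.2), aligned them with STAR 2.7.0c to GRCm38 and counted reads per gene without multimapping reads; the deposited values are raw counts, with a table for each age. Symbols and exon lengths came from GENCODE M21, while the methods name M8.

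Counts were tested with edgeR 4.0.16 (R 4.3.3; TMM, filterByExpr, quasi-likelihood), Benjamini-Hochberg adjustment ran over all genes, and the threshold was 0.05. The scripts were tested on simulated data. Alternatives were DESeq2 1.42.0, limma-voom 3.58.1, other scalings, no filter, a replicate block and leaving out libraries. The files held 0 columns without a sample. Replicate pairs differed beyond counting noise.

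Members were chosen by symbol and not by their values, but earlier results of these data were known when members and lists were chosen. Genes named were Kcnh1, Cacna1d, those called (up to 20 per age, 10 for the difference of effects, 12 between control groups), the 8 highest per kb, the highest of each family, and up to 4 called per list; others are said to be named after their values were seen. Errors printed are SDs between libraries and standard errors derived from the edgeR test. Each such standard error is the size of the log2 fold change divided by the square root of its quasi-likelihood F statistic. Some genes, with the results that need them, are not reported here but stay in the counts of members called.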

Additional observations from a re-analysis of the deposited data

Results flagged for a closer look

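Among 36 members named by the rule, 139 groups of libraries were tested for a library far from the rest of its group, and 12 held one, where chance flags about 1 in 20 groups, or 7. Values are scaled counts. At E14.5, control library 1 was lowest in Kcna5 (5.66, others from 105), Kcnh2 (231, others from 508), Kcnip3 (26.1, others from 101) and Kcnma1 (342, others from 522). Control library 4 was lowest in Scn2b (40.1, others from 91.7), and Isl1CKO library 1 was lowest in Hcn3 (11.8, others from 91.0). At P9, Isl1CKO library 5 was lowest in Kcnb2 (38.3, others from 128) and Kcnk16 (747, others from 1317). Isl1CKO library 2 was lowest in Kcnd1 (4.68, others from 47.5), and Isl1CKO library 3 was highest in Kcnj13 (30.6, others to 2.62). Control library 1 was highest in Kcng3 (34.9, others to 5.33), and control library 4 was lowest in Kcnq1 (12.0, others from 94.3).

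The genotype effect differed between the ages by a test of the difference itself for Cacna2d1 (0.85 on the log2 scale, P9 minus E14.5), Kcnh1 (−3.71) and Scn3a (1.40).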

How the results depend on the processing

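Counts of members called moved most with the scaling and the test. At E14.5, 1 member was called, 5 with DESeq2 and 0 with limma-voom, and leaving out a library gave 1 to 2. At P9, 8 were called, 16 with total counts and 5 with the replicate block, and leaving out a library gave 6 to 9. For the difference of the genotype effect, 3 were called, 7 with DESeq2, 14 with total counts, 1 with the replicate block and 1 without E14.5 Isl1CKO libraries 3, 4 and 5, and leaving out a library gave 2 to 4. Between the control groups, 31 were called and leaving out a library gave 25 to 32. With total counts Kcnma1 (−0.0712), Cacna1d (−0.42), Kcnk1 (−0.121), Kcnmb2 (−0.573) and Cacna1a (−0.469) changed sign there. The replicate numbers did not pair the samples (correlations of deviations from −0.0516 to 0.0559), so the block is only an alternative. Under it Kcnc2 (4.19), Kcnmb4 (2.76) and Kcnn2 (−2.12) lost their P9 calls, Kcnh1 (−3.27) and Cacna2d1 (0.80) those for the difference, and Kcnk16 (−0.48) that between controls. Over all genes, E14.5 calls went from 228 to 653 with DESeq2, 134 with the block and 42 without those 3 libraries; P9 calls from 671 to 1677 with DESeq2, 3975 with total counts and 333 with the block; calls for the difference from 359 to 924, 3199, 130 and, without the 3 libraries, 57; and calls between controls from 5347 to 10636 with total counts. Low counts limit what can be seen: 48 members at E14.5 and 64 at P9 were not tested. The causes were not tested.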
